A study of Mus musculus with 4 samples.

Results

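Genes for the receptors of epidermal growth factor (EGF) and fibroblast growth factor (FGF) and for 2 FGF ligands were examined for occupancy by the coactivator subunit Med1 and the histone-modifying enzymes Carm1 and Jmjd1c. The 9 loci are Egfr, Erbb2, Erbb3 and Erbb4 of the EGF receptor family, the FGF receptors Fgfr1, Fgfr2 and Fgfr3, and the ligands Fgf1 and Fgf2, out of 22208 protein-coding genes of the GENCODE vM1 annotation of mouse build mm9. They were chosen by name, with earlier results of these data known, and a locus is the gene with 100 kb on each side. ChIP-seq was done in the NS-5 line of neural stem cells, which was derived from mouse embryonic stem cells, with 1 sample for each of Med1, Carm1, Jmjd1c and the IgG control. All 4 samples were untreated cells grown with EGF and FGF2 in the medium, both at 10 ng/mL. With 1 sample per antibody there is no replicate error and no test, and the counts and levels below describe these samples.

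EGF and FGF ligands bind receptor tyrosine kinases at the cell surface, which pair up, phosphorylate each other and signal through adaptors to the Ras and MAP kinase cascade. Neural stem cells in culture depend on these signals to divide without differentiating. Mediator links transcription factors at enhancers to RNA polymerase II, Carm1 methylates arginines of histones and other proteins, and Jmjd1c belongs to a family of histone H3 lysine 9 demethylases.

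The deposited lists held 19956 Med1, 8759 Carm1 and 8078 Jmjd1c sites, given as start and end positions, with median widths of 1502, 269 and 312 bp. A table of 8089 enhancer regions gave the Med1 and the IgG signal summed over each region, and named 445 of them super enhancers (SEs), the regions with the highest Med1 signal after IgG was subtracted. The label of the cells was checked at promoters: 9 of 10 neural stem cell markers had a Med1 site within 1.5 kb of a transcript start, all but Prom1, where 44.3% of all protein-coding genes had one, against 0 of 4 oligodendrocyte genes, 0 of 4 endothelial and microglial genes, 0 of 4 pluripotency genes and 1 of 5 neuronal genes (Tubb3). All 4 astrocyte genes, Gfap, Aqp4, Aldoc and S100b, also had one, so this check does not tell neural stem cells from astrocytes. A site is not a measure of expression, and no RNA was analysed here.

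Sequences of 4 places where all 3 factors met, and of 3 promoters, show what the loci look like at the positions the results turn on. The 4 windows are 200 bases each, on the plus strand of mm9, centred on the overlap of a Carm1 and a Jmjd1c site that lies on a Med1 site. A pair of them lies inside the SE in an Egfr intron (chr11:16732037-16732236 and chr11:16744043-16744242), and the others lie upstream of Fgfr2 (chr7:137463425-137463624) and in the SE upstream of Fgfr3 (chr5:34031986-34032185). Capitals mark the E-box CAGNTG, the NFI motif TTGGC and the SOX letters ACAANG on either strand, where overlapping matches run together.
Egfr intron, 5' window: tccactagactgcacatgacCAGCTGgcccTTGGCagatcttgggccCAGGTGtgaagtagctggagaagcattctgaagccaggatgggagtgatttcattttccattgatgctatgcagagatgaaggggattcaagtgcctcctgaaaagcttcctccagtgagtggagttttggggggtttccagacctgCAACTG
Egfr intron, 3' window: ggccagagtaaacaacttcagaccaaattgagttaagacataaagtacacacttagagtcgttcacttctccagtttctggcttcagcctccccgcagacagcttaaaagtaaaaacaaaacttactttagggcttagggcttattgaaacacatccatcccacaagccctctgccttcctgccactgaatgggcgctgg
Fgfr2 upstream: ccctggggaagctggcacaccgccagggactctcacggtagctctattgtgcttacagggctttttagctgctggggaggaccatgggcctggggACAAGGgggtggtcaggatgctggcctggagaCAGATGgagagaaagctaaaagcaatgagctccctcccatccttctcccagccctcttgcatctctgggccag
Fgfr3 upstream: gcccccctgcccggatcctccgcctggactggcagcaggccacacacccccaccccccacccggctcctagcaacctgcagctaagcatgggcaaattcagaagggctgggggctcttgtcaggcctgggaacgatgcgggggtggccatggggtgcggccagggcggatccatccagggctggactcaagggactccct

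The first Egfr window held 3 E-boxes and 1 NFI motif. The second Egfr window and the Fgfr3 window held none of the 3 motifs. The Fgfr2 window held 1 E-box and 1 SOX match. Over the 14 such windows at all 9 loci, 4 had an E-box (28.6%), 4 an NFI motif (28.6%) and 5 the SOX letters (35.7%), against 55.8%, 53.9% and 49.0% of all 2462 windows of the genome. The gap depends on the width of the window, since in 300 bases the counts were 9, 7 and 8 of 14 (64.3%, 50.0% and 57.1%), against 69.0%, 66.5% and 60.4%. Windows at 1 locus are not independent of each other, and a match of letters does not show that a factor binds.

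The promoters of Egfr (chr11:16651956-16652205, plus strand), Fgfr3 (chr5:34064123-34064372, plus strand) and Fgf2 (chr3:37247325-37247574, plus strand) are shown because Egfr and Fgf2 had no Med1 site at these starts, while Med1 and Carm1 both covered that of Fgfr3. The Fgf2 run lies inside its gene record, before the start of Fgf2-007, since the record begins further upstream with another transcript (Fgf2-006). Each run is the 250 bases before a start in RefSeq (assembly GRCm38.p6), which were found letter for letter in mm9 at the positions given. Capitals mark the GC box GGGCGG and the CCAAT box on either strand.
Egfr promoter: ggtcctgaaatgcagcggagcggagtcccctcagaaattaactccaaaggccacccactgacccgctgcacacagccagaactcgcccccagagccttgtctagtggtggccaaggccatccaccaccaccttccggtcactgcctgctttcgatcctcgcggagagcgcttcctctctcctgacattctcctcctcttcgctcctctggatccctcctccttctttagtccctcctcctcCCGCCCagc
Fgfr3 promoter: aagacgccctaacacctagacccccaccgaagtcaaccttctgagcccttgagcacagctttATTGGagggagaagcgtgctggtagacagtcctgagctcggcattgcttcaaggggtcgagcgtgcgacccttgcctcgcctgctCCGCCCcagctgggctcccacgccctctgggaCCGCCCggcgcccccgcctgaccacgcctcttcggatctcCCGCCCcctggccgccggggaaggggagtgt
Fgf2 promoter: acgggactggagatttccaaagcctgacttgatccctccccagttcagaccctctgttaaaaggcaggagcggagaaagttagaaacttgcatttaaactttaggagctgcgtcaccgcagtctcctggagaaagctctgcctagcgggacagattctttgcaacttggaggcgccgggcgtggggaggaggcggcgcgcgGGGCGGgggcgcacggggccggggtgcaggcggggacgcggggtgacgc

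The Fgfr3 promoter held 3 GC boxes and 1 CCAAT box, the Egfr and Fgf2 promoters 1 GC box each. Of 32851 RefSeq promoters of this length 32.7% hold a GC box and 33.8% a CCAAT box. None of the 3 runs held TATAAA, which 12.4% of all promoters hold. Their GC contents were 60.8% for Egfr, 66.8% for Fgfr3 and 62.4% for Fgf2, against a median of 52.4% for all promoters. The promoters of Erbb2 and Fgfr2, which had Med1, held no GC box, with GC contents of 66.0% and 44.0%. That of Erbb4, without Med1, held none either (54.0%). The run before a second RefSeq start of Fgfr3 had Med1 without Carm1, and held 2 GC boxes and no CCAAT box (72.8%). GC boxes and Med1 thus did not go together over these promoters.

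Med1 was found at every one of the 9 loci, where 80.3% of all protein-coding genes had a Med1 site in the same window. Carm1 and Jmjd1c sites were each found at 8 loci, all but that of Fgf2, against 62.9% and 57.2% of all genes. In total the windows held 57 Med1, 25 Carm1 and 30 Jmjd1c sites. These totals use Fgfr2 without 1 annotated transcript (Fgfr2-007) that starts about 3 Mb upstream of the others and takes in unrelated genes. With the full gene record, which spans 3009069 bp in place of 104297 bp, the totals are 88, 38 and 47. The median locus had 7 Med1, 3 Carm1 and 3 Jmjd1c sites, against 3, 1 and 1 for all genes, and per 100 kb of window the medians were 3.15, 1.09 and 1.33, against 1.30, 0.449 and 0.410. A window also holds the sites of other genes: 28 of the 57 Med1 sites were nearest to a transcript start of one of the 9 genes, and 24 of the 57 lay at a promoter, 17 of these at promoters of neighbours.

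**Figure D1:**
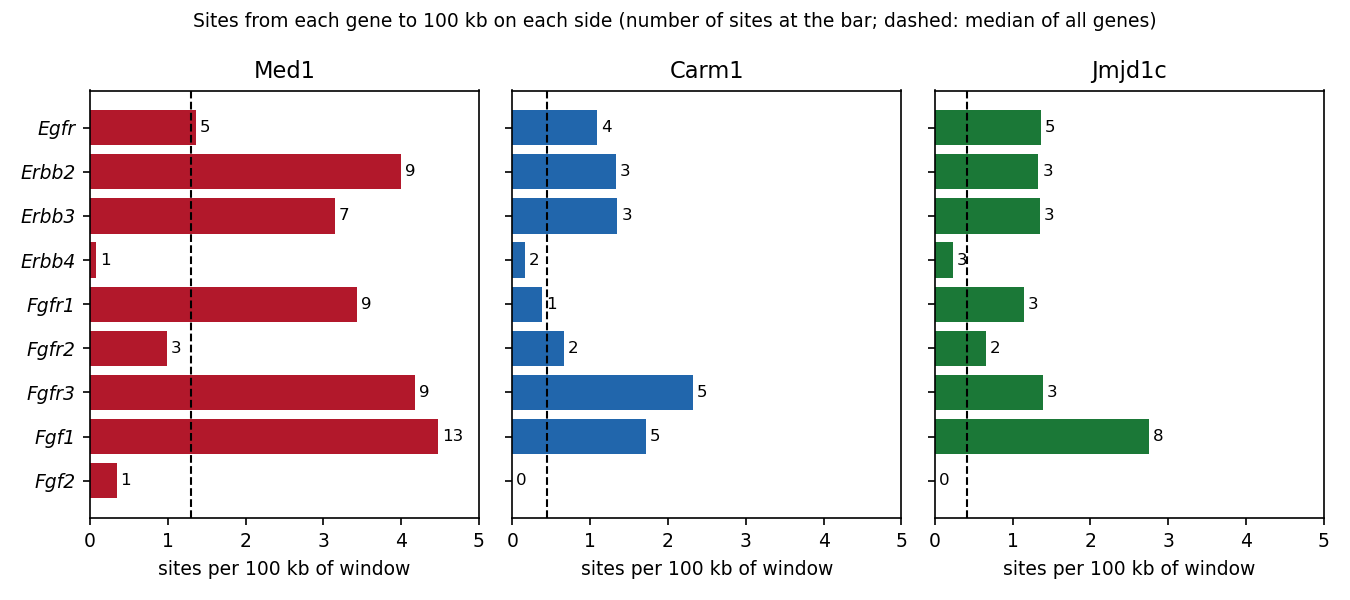
Bars give the sites of each factor per 100 kb of window at the 9 loci (1 sample per factor, no error), numbers at the bars the sites counted, and dashed lines the median of all protein-coding genes. With Fgfr2 read without its transcript of 3 Mb, Fgf1 had the most Med1 and Jmjd1c sites, 13 and 8, and Fgf2 had 1 Med1 site and none of the other factors.

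Within the EGF receptor family, Med1 at the gene's own promoter and enhancer regions of the table were found at different genes. Erbb2 and Erbb3 had Med1 at the promoter and no enhancer region in the window, Egfr and Erbb4 had enhancer regions and no Med1 at the promoter. Of all protein-coding genes 44.3% had Med1 at a promoter and 50.6% an enhancer region in the window. The share of all genes with 1 and not the other was not computed, so this split of 4 genes carries little weight. Egfr, the receptor for EGF itself, had 5 Med1, 4 Carm1 and 5 Jmjd1c sites over its gene of 165956 bp and the flanks, and none of the Med1 sites lay at a promoter. Its SE, ranked 162 of 445, lay within the gene at 63.8 to 93.5 kb from the 5' end (chr11:16716012-16745711) and had a Med1 signal of 10033 against an IgG signal of 4241, a ratio of 2.37. This SE held 3 Med1, 2 Carm1 and 2 Jmjd1c sites, and both Carm1 sites lay with a Jmjd1c site on a Med1 site, at 79.9 and 91.9 kb.

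The Egfr SE was long rather than dense. At 29.7 kb it was among the longer SEs, of which 14.8% were at least as long, its Med1 signal per kb was 338, against a median of 499 for all SEs, and 97.3% of SEs had a ratio of Med1 to IgG at least as high. Low density was not particular to Egfr. The SEs at Fgf1, ranked 56, 116 and 192, had 282, 333 and 286 for Med1 per kb, and the SE at Fgfr3 had 278. IgG is uneven between chromosomes in this sample: the median IgG signal per kb of the regions that are not SEs was 203 on chromosome 11, which carries Egfr and Erbb2, and 132 over all chromosomes. The IgG median was also high on chromosome 15 (172) and was low on the X chromosome (67.35). With IgG divided by the level of its chromosome and Med1 left unscaled, the ratio of the Egfr SE was 3.65. Whether Med1 differs between chromosomes in the same way was not tested, so 3.65 is not a corrected enrichment. Of the other 4 regions at Egfr, the best lay 17.2 to 28.2 kb past its 3' end (rank 767), with a Med1 signal of 3695 against 1378 for IgG. It held 1 site of each factor, with all 3 together, and was nearest to Fbxo48, a gene of the F-box family. The region at 82.1 kb upstream had 973 for Med1 against 664 for IgG (ratio 1.47) and held a Med1 and a Jmjd1c site, and the region at 10.6 kb upstream had 451 against 334 (ratio 1.35) and no site. The remaining region, at 125 kb, had 755 against 290, and its Jmjd1c site, without Med1, lay 0.187 kb upstream of the start of an internal transcript (Egfr-003).

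Erbb2, the family member without a known ligand that acts as partner of the others, had 9 Med1, 3 Carm1 and 3 Jmjd1c sites in a window crowded with genes. A Med1 site of 2072 bp covered its start (midpoint 0.479 kb downstream) together with a Jmjd1c site 0.223 kb downstream, and a further Med1 site lay 2.94 kb upstream. The other 7 Med1 sites were nearest to Neurod2, Ppp1r1b, Stard3, Tcap or Pgap3, and the site where all 3 factors met, 12.0 kb upstream of Erbb2, lay on the promoter of Pgap3, which acts on lipid anchors of cell surface proteins. Erbb3, a receptor for neuregulins with little kinase activity of its own, had 7 Med1, 3 Carm1 and 3 Jmjd1c sites. Of the 7, 1 belonged to Erbb3, a site of 1089 bp centred 0.792 kb upstream of its start without Carm1 or Jmjd1c, and the other 6 lay on promoters of other genes (Myl6, Myl6b, Esyt1, Zc3h10, Pa2g4 and Rps26). All 3 factors met on the promoter of Esyt1, a protein of contacts between the endoplasmic reticulum and the plasma membrane. At both genes the Med1 sites of the window thus lay mostly at neighbours, and those of Fgfr3 were also mostly nearest to other genes.

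Erbb4, the other neuregulin receptor, spans 1075874 bp and had the lowest density of Med1 sites of the 9 genes, with 1 Med1, 2 Carm1 and 3 Jmjd1c sites (0.0784, 0.157 and 0.235 per 100 kb). Its only Med1 site was shared by all 3 factors. A Carm1 and a Jmjd1c site without Med1 lay 397 bp apart in an intron, 134 kb into the gene. Of its 4 regions, 3 lay in introns: 1 near the 3' end with a Jmjd1c site (485 for Med1 against 204 for IgG), 1 at 235 kb (235 against 142), and 1 at 82.9 kb where Med1 was lower than IgG (8.38 against 28.2). Summed over all 4 regions Med1 was 1515 against 508 for IgG, a ratio of 2.98.

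The 3 FGF receptors each had Med1 at the promoter, and Fgfr1 and Fgfr3 also had an SE upstream. Fgfr1 had 9 Med1 sites, 3 Jmjd1c sites and 1 Carm1 site, and no site with all 3 factors. Its SE, ranked 329, lay 45.9 to 50.6 kb upstream of the 5' end (chr8:26573553-26578214) and held a Med1 site of 3763 bp with a Jmjd1c site and no Carm1 site. It was short and dense: 4328 for Med1 against 372 for IgG over 4.66 kb, a ratio of 11.6 that 1.35% of SEs reached, and 929 for Med1 per kb, which 18.2% of SEs reached, while 92.1% of SEs were at least as long. An intronic region at 28.3 to 34.2 kb into the gene (rank 545) came close to it in Med1 signal, 4165 against 1280 for IgG, and also held a Med1 and a Jmjd1c site. After IgG was subtracted 2885 was left there and 3957 in the SE, and the lowest value of any SE was 3257.

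The Med1 site at the promoter of Fgfr1 was 2900 bp wide and covered the starts of Fgfr1-001 and several other transcripts, with its midpoint 6.003 kb inside the gene record. It did not reach the 5' end of the record, where 1 transcript (Fgfr1-012) begins. No Carm1 or Jmjd1c site was found on it, while a Med1 site 23.2 kb into the gene had Jmjd1c. The only Carm1 site of the locus lay with Med1 72.6 kb upstream. The 4 Med1 sites downstream of the gene were nearest to Letm2 or Whsc1l1, and a region in Letm2 had 599 for Med1 against 159 for IgG.

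Fgfr2 had the fewest sites of the FGF receptors, 3 Med1, 2 Carm1 and 2 Jmjd1c sites, and no SE. A Med1 site of 2575 bp covered its start, a second one lay in an intron 51.0 kb into the gene, and the third lay 53.4 kb upstream with Carm1 and Jmjd1c. The intronic region (rank 3031) had 889 for Med1 against 178 for IgG, a ratio of 4.98, and the upstream region (rank 2617) had 1506 against 658, a ratio of 2.29. The upstream region was long and thin, 13.5 kb with 112 for Med1 per kb, a level that 95.04% of all regions reached. A Carm1 site counted at a promoter of Fgfr2 lay 87.7 kb into the gene at the start of a transcript with a retained intron, and the other Jmjd1c site lay in a region 69.8 to 71.3 kb past the 3' end, with 558 for Med1 against 233 for IgG. The remaining region, near the 3' end of the gene, held no site and had 352 against 124.

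Fgfr3 was the most compact of the receptors (15344 bp) and had 9 Med1, 5 Carm1 and 3 Jmjd1c sites, 2.32 Carm1 sites per 100 kb, a density that 2.29% of all genes reached. These totals include sites of neighbours: 3 of the Med1 sites were nearest to a start of Fgfr3 and 4 lay at promoters of other genes. Most of the 5 Carm1 sites were nearest to Slbp or Tacc3 and not to Fgfr3. Med1 and Carm1 met at the start of Fgfr3, the only promoter of the 9 genes with Carm1 at the 5' end of the gene, and Jmjd1c was not found there. The SE, ranked 424, filled much of the space between Tacc3 and Fgfr3, from 33.3 to 14.8 kb upstream (chr5:34031087-34049607), with 5147 for Med1 against 1734 for IgG, a ratio of 2.97. After IgG was subtracted 3413 was left, near the lowest value of any SE, 3257. Of the 3 Med1 sites of the SE, the one farthest from Fgfr3 had both other factors and was nearest to a start of Tacc3. The one nearest to Fgfr3, 16.2 kb upstream, had Carm1, and the one between them had neither. A dense region in an intron of Tacc3, a gene for a spindle protein, lay 47.3 kb upstream (rank 1744), with 1871 for Med1 against 604 for IgG and 1033 for Med1 per kb, a level that 4.59% of all regions reached. All 3 factors met there, and again at the promoter of Slbp, the gene of the histone mRNA stem-loop binding protein, 69.4 kb upstream.

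**Figure D2:**
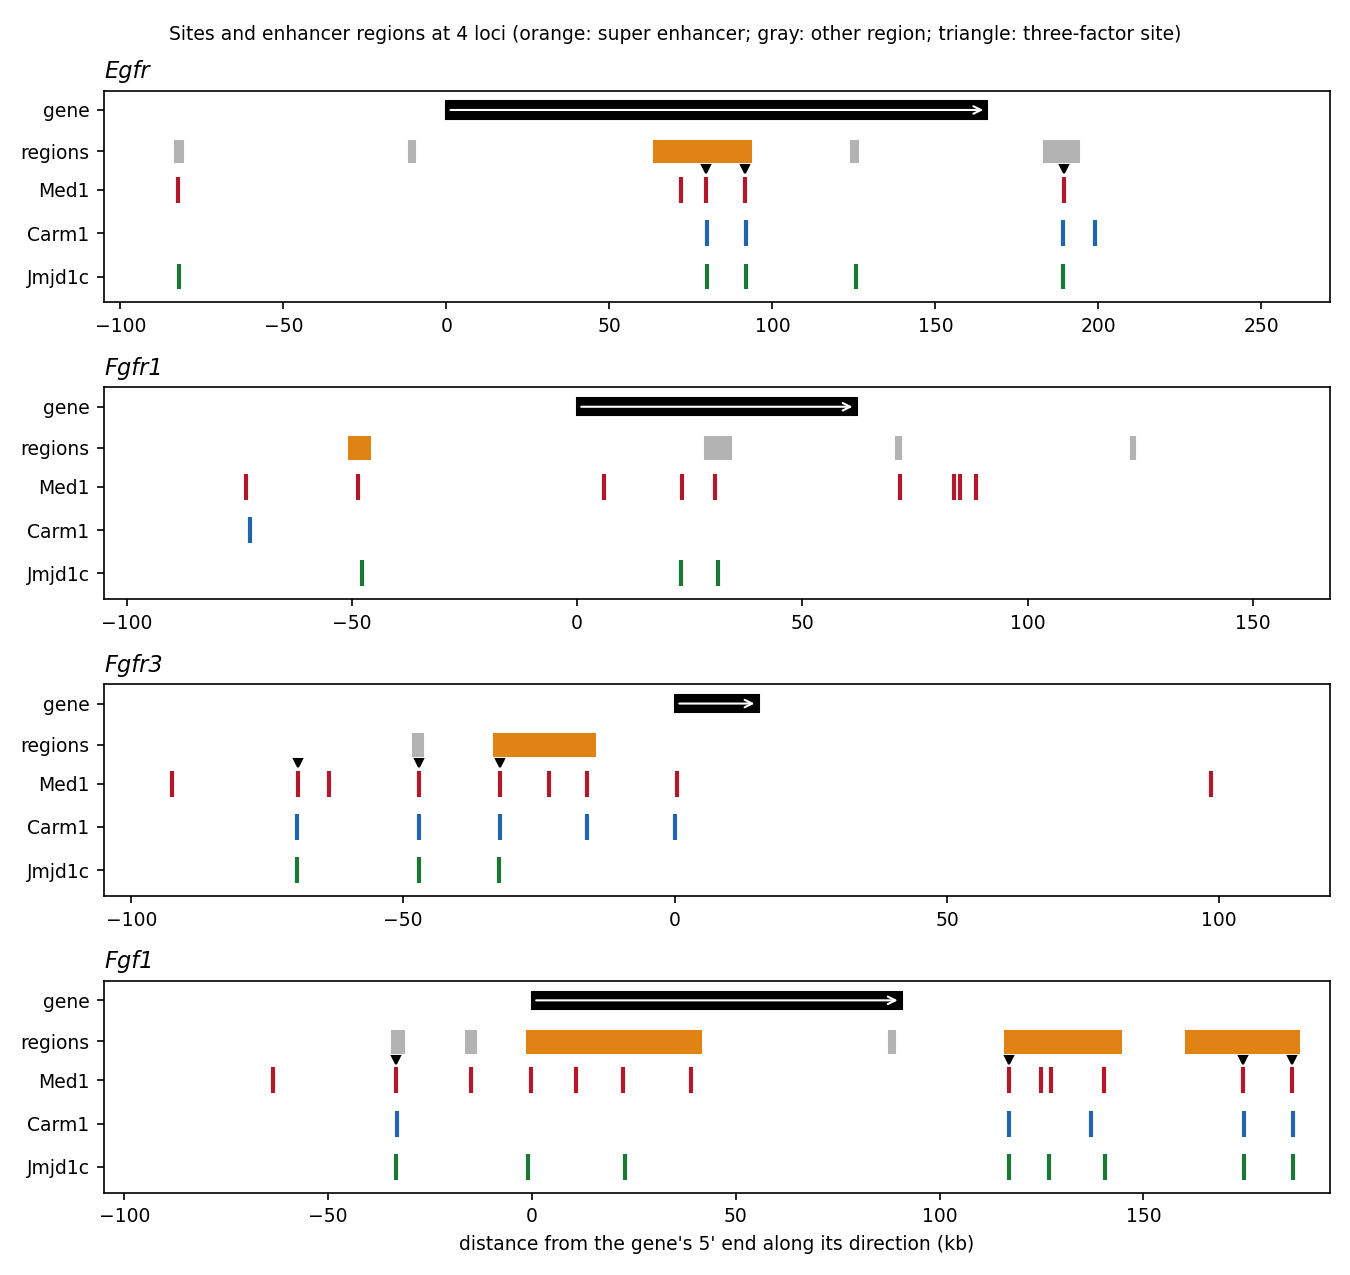
Each panel shows 1 locus along the direction of its gene in kb from the gene's 5' end: the gene (black), enhancer regions (orange for SEs, gray for others) and the midpoints of Med1, Carm1 and Jmjd1c sites, with triangles over Med1 sites shared by all 3 factors. The SE lies inside the gene at Egfr, upstream at Fgfr1 and Fgfr3, and over the 5' end and beyond the 3' end at Fgf1.

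The ligand genes lay at opposite ends of the 9 loci in number of sites. Fgf1, or acidic FGF, had 13 Med1, 5 Carm1 and 8 Jmjd1c sites, the most Med1 and Jmjd1c sites of the 9 genes (Fgfr3 also had 5 Carm1 sites, and Fgfr2 by its full record of 3 Mb had 34, 15 and 19), and 3 SEs, where 0.0811% of all protein-coding genes had 3 or more in their window. Its Med1 minus IgG signal, summed over the 6 regions of the window, came to 7714 per 100 kb, a level that 0.342% of all genes reached, and its 2.752 Jmjd1c sites per 100 kb were reached by 0.887%. The highest SE, ranked 56, ran from 1.102 kb upstream of the 5' end to 41.5 kb into the gene (chr18:39047596-39090160), with 11999 for Med1 against 3273 for IgG, a ratio of 3.67. It joined 4 enhancers over 42.6 kb and held 4 Med1 and 2 Jmjd1c sites and no Carm1 site. A Med1 site of 2587 bp with Jmjd1c covered the 5' end, and another, without Carm1 or Jmjd1c, covered the start of Fgf1-001 with its midpoint 10.9 kb further in.

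The other SEs of Fgf1 lay past its 3' end within Arhgap26, a gene whose body takes in the whole Fgf1 gene. The SE ranked 116 lay 25.3 to 53.7 kb past the 3' end (chr18:38944592-38972979), with 9450 for Med1 against 2651 for IgG, and held 4 Med1, 2 Carm1 and 3 Jmjd1c sites. The SE ranked 192 lay 69.8 to 97.5 kb past it (chr18:38900865-38928521), with 7913 for Med1 against 2586 for IgG, held 2 sites of each factor, all shared, and was nearest to a start of Arhgap26. Together the 3 SEs covered 98.6 kb with 10 Med1, 4 Carm1 and 7 Jmjd1c sites, and Carm1 was found in the ones beyond the gene and not in the one over the gene's 5' end. Carm1 and Jmjd1c also met on a Med1 site 33.3 kb upstream, in a region (rank 3588) with 1025 for Med1 against 460 for IgG. Another upstream region (rank 2184) had 1439 against 405, and a short region near the 3' end had slightly less Med1 than IgG (313 against 335).

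Fgf2, or basic FGF, the factor supplied in the medium, had no Carm1 site, no Jmjd1c site and no enhancer region in 292859 bp. Its only Med1 site, of 2834 bp, lay downstream of the gene, over the starts of Spata5 and of Nudt6, which runs towards Fgf2 on the other strand, 107 kb from the 5' end of the Fgf2 record. No Med1 site reached any of the starts annotated for Fgf2. Of all protein-coding genes 78.3% had at least as many Med1 sites per 100 kb.

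Enhancer regions were found at 6 of the 9 loci, against 50.6% of all genes, and an SE at 4 of the 9 loci, Egfr, Fgfr1, Fgfr3 and Fgf1, against 6.2% of all genes. The windows of the 9 loci had a median length of 290732 bp, against 215508 bp for all genes. Shares of genes with a site, a region or an SE in the window were not adjusted for this. Among the 25 regions near the genes 19 had a Med1 signal of at least 2 times the IgG signal, against 70.5% of all regions, the median ratio was 2.68 against 2.80, and the median Med1 signal per kb 338 against 366. Med1 was below IgG in 2 of 25, against 4.54% of all. SEs were 6 of the 25, against 5.5% of all regions. Ranked by Med1 without IgG subtraction, the top 445 held regions at 3 genes and not the one at Fgfr1, and ranked by Med1 minus IgG per kb they held the one at Fgfr1 and none at the other 3 genes. With the full record of Fgfr2 there were 40 regions, and still 6 SEs. Regions nearest to a start of one of the 9 genes numbered 18 of 25, and the nearest start to the middle of an SE was that of the gene itself at all but the Fgf1 SE ranked 192.

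**Figure D3:**
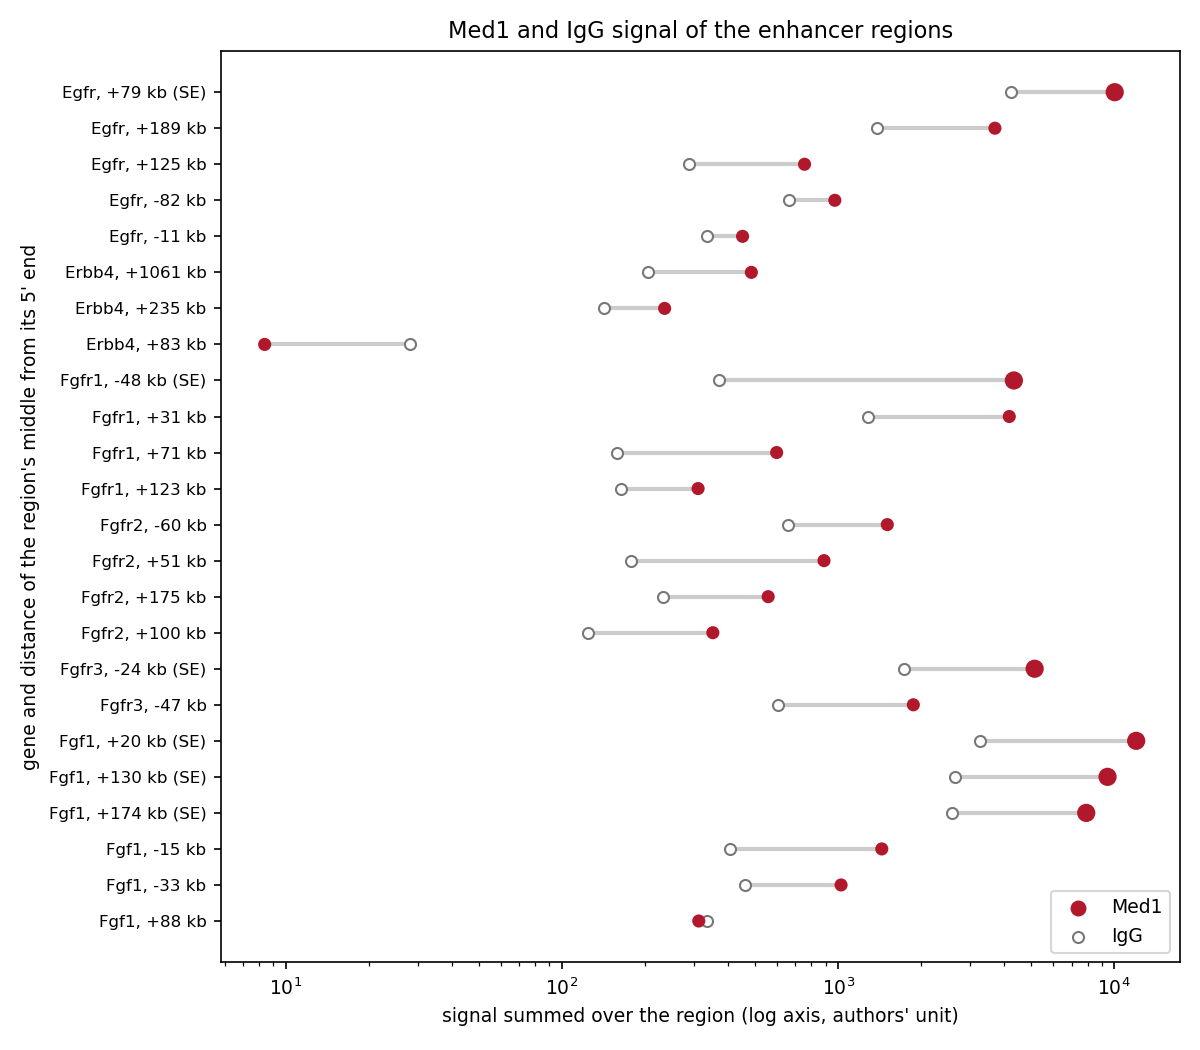
Each line is 1 of 24 of the 25 enhancer regions, named by its gene and the distance of its middle from the gene's 5' end, with the Med1 signal (filled, large for SEs) and the IgG signal (open) on a log axis (1 sample each, no error). Med1 lies above IgG in 22 of these and below it in 1 region of Erbb4 and 1 of Fgf1.

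**Figure D4:**
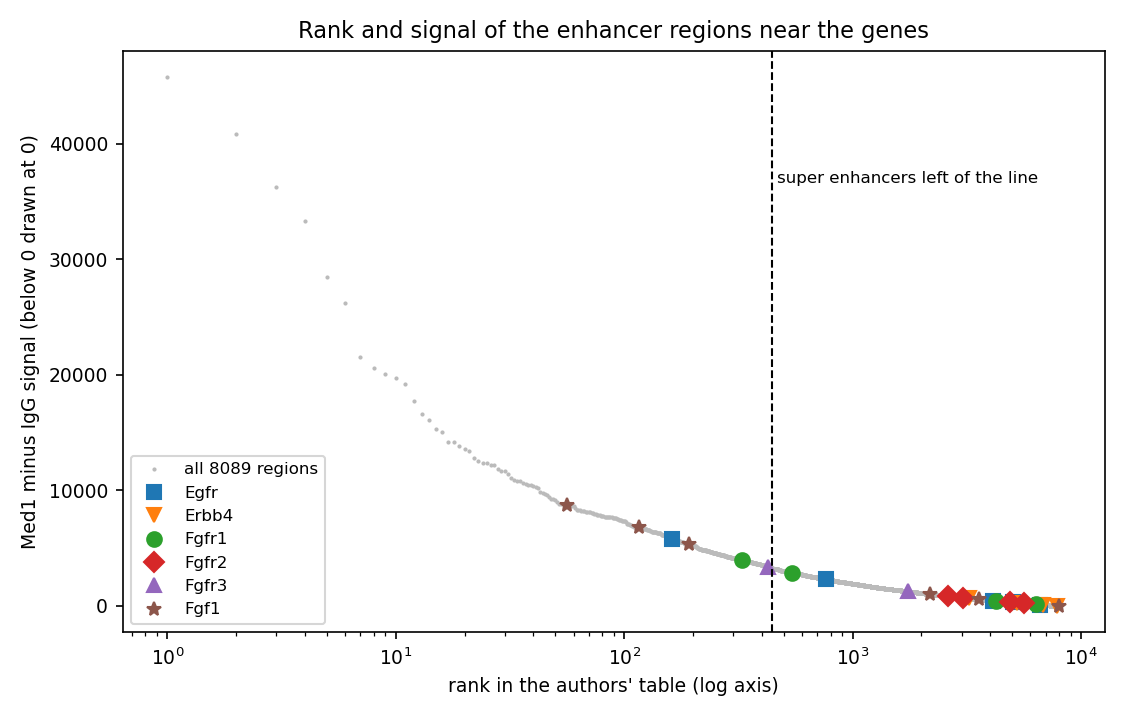
Med1 minus IgG signal of all 8089 regions (gray) against their rank on a log axis, with the regions of the genes marked and SEs left of the dashed line. The 6 SEs have ranks 56, 116, 162, 192, 329 and 424, and the next regions are those of Fgfr1 at 545 and Egfr at 767.

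At promoters, counting any annotated transcript start with 1.5 kb on each side, Med1 was found at 6 of the 9 genes (Erbb2, Erbb3, Fgfr1, Fgfr2, Fgfr3 and Fgf1), against 44.3% of all genes. Carm1 was found at 2 (Fgfr2 and Fgfr3), against 11.3%, and Jmjd1c at 3 (Egfr, Erbb2 and Fgf1), against 10.2%. At the 5' end of the gene alone the counts were 5, 1 and 2, since Fgfr1, Fgfr2 and Egfr had these sites at other transcript starts. Erbb4 and Fgf2 had none of the factors at a promoter, as had 53.3% of all genes. None of the 9 genes had all 3 factors at a promoter. The share of all genes with all 3 was not computed, and with Carm1 and Jmjd1c this scarce at promoters their absence together carries little weight.

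All 3 factors met on 14 of the 57 Med1 sites (24.6%, 95% Wilson interval 15.2 to 37.1%, which covers the counting of sites only), against 12.9% of the whole Med1 list, and at 7 of the 9 loci, against 27.9% of all genes. Sites at 1 locus are not independent of each other, and Fgf1 held 4 of the 14 and Egfr and Fgfr3 3 each, so the interval does not show an enrichment at these genes. Of the 28 Med1 sites nearest to a start of one of the 9 genes, 5 had all 3 factors. Outside promoters all 3 factors met on 11 of 33 Med1 sites (33.3%, 19.8 to 50.4%), against 18.01%, and at promoters on 3 of 24 (12.5%, 4.34 to 31.0%), against 6.46%. Of the other Med1 sites, 12 had Jmjd1c alone, 6 Carm1 alone and 25 neither, counts that cannot be set against each other since the Carm1 and Jmjd1c lists may have different thresholds. The 14 shared sites lay in SEs (6), in other enhancer regions (5) or outside the table's regions (3, all at promoters of neighbours), and 5 of them were nearest to one of the 9 genes: 2 at Egfr and 1 each at Erbb4, Fgfr2 and Fgf1. Within a shared site the Carm1 and Jmjd1c sites overlapped by 33 to 505 bp, and the middle of their overlap lay 4 to 440 bp from the Med1 midpoint. Seen from the other side, 20 of 25 Carm1 sites lay on a Med1 site, against 56.4% of the whole list, and 26 of 30 Jmjd1c sites, against 65.8%.

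Other genes of both pathways were read by the same rules. Of 11 EGF family ligand genes, 3 had Med1 at the promoter (Egf, Nrg1 and Nrg2) and none had Carm1 or Jmjd1c there. Areg, Ereg and Epgn, neighbouring genes of the ligands amphiregulin, epiregulin and epigen, shared 1 SE (rank 425), nearest to Areg, with 4834 for Med1 against 1435 for IgG, and no other ligand gene of the EGF family had one. Of 20 other FGF ligand genes, 5 had Med1 and 3 Jmjd1c at the promoter and none had Carm1 there or an SE in the window. Of 4 further receptors and co-receptors (Fgfr4, Fgfrl1, Kl and Klb), 2 had Med1 at the promoter, 1 Carm1 (Fgfr4) and none an SE. Of 12 genes of adaptors and proximal effectors, 11 had Med1 at the promoter, all but Cblb, and 2 had an SE in the window: Sos2, of a Ras exchange factor (rank 330, 4876 for Med1 against 924 for IgG, nearest to Mettl21d), and Cbl, of a ubiquitin ligase that acts on receptors (rank 420, 4584 against 1139, nearest to Usp2). Of all protein-coding genes 44.3% had Med1, 11.3% Carm1 and 10.2% Jmjd1c at a promoter and 6.2% had an SE in the window, so few or no calls in lists this short carry little weight for Carm1, Jmjd1c and SEs. No gene of the 4 lists had all 3 factors at a promoter, and the share of all genes that had was not computed.

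The genes with readouts most like those of the 4 loci with an SE were looked up over 4 readouts, the numbers of Med1, Carm1 and Jmjd1c sites and the Med1 minus IgG signal per 100 kb, among genes of a length within 2-fold, with the Euclidean distance on the log2(x + 1) scale. For Egfr they were Tgfbr2, a receptor of TGF-beta (distance 0.355), and Fam134b (0.433), each with 1 SE. For Fgfr1 they were Kcnc1, a potassium channel gene (0.0094), and 1110059E24Rik (0.0095), both with 9 Med1 sites, 1 Carm1 site, 3 Jmjd1c sites and 1 SE. For Fgfr3 they were Itm2c (0.0691) and Zmiz2 (0.142), neither with an SE. For Fgf1 they were Scarb1 (0.364) and Ptn, the gene of pleiotrophin (0.379), with 2 SEs each and Med1 minus IgG signals of 6749 and 6463 per 100 kb, against 7714 at Fgf1.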

How the data were processed

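ChIP-seq of untreated NS-5 cells gave 1 sample each for Med1, Carm1, Jmjd1c and IgG. Per the submitters' notes and the study's methods, reads were mapped to mm9 by the authors (Bowtie 0.12.7), duplicates were taken out (Picard 1.81 is listed in the notes), and MACS 1.4.2 called sites against IgG. The deposited site lists give positions only, and the threshold of each list, which may differ between Carm1 and Jmjd1c by the numbers in the list names, and the read totals are not settled here, so the depth behind a site is unknown and a missing site may lie below a threshold. The deposited enhancer table, made with ROSE from regions with Ep300 and H3K27ac and, by the methods, without the surroundings of transcript starts (some regions here do cover starts), gives the signal of Med1 and of IgG as read density scaled to mapped reads and summed over each region, so it grows with length.

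Sites and regions were placed in a window by their midpoints. Promoters were 1.5 kb on each side of a transcript start. A gene was counted with a factor at a promoter where a site overlapped this stretch at any of its transcripts. A site was counted as lying at a promoter where its midpoint was within 1.5 kb of the start of a protein-coding transcript. A shared site is a Med1 site overlapped by at least 1 bp by a Carm1 and a Jmjd1c site. RefSeq promoters were found for Egfr, Erbb2, Erbb4, Fgfr2, Fgfr3 and Fgf2. Fgfr2 was read without transcript Fgfr2-007, a choice made after the annotation was seen. Genes were named by a rule: the 9 genes, pathway genes with an SE in the window, genes nearest to an SE or a shared site, and for each locus with an SE the 2 genes most like it. The genes, lists and rules were chosen with earlier results of these data known. Genes at neighbouring promoters were named after their values were seen. One region of the Erbb4 window is not reported here. Counting functions were tested on simulated data, where 18 of 18 checks were met. Tables were handled in Python 3.11.15 (pandas 2.3.3, numpy 2.4.6), sequences with pysam 0.24.0, and plots with matplotlib 3.10.9. Alternatives covered window, promoter and overlap rules, the SE ranking, IgG scaling and the motif window.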

Additional observations from a re-analysis of the deposited data

How the results depend on the processing

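Of 55 alternatives over 12 counts, 34 stayed within 1.5 times the reported count and 21 did not. Site totals followed the window. In the gene bodies alone there were 13 Med1, 4 Carm1 and 9 Jmjd1c sites, 2 shared sites and 2 genes with an SE (Egfr and Fgf1). Sites nearest to a start of the 9 genes numbered 28 Med1, 11 Carm1 and 17 Jmjd1c, and 23 Med1 sites were among the first 5000 of the Med1 list, whose order is not explained in the sources used here. By the full gene record of Fgfr2, a setting added after seeing the data, there were 88 Med1, 38 Carm1 and 47 Jmjd1c sites, and 31 of 40 regions had Med1 at least 2 times IgG. At least 3 times IgG was reached by 10 of 25 regions. The Carm1 count at promoters was 1 at the 5' end of genes alone. Shared sites numbered 9 with midpoints within 200 bp. With the 445 regions highest in Med1 without IgG subtraction, 3 genes had such a region (Egfr, Fgfr3 and Fgf1, not Fgfr1), and with the 445 highest in Med1 minus IgG per kb, 1 gene had one (Fgfr1). In windows of 300 bp 9, 7 and 8 of 14 held an E-box, an NFI motif and the SOX letters, and in windows of 100 bp 2 held an NFI motif. The cause of these shifts beyond the changed rule was not tested. No paired analysis was possible because each antibody had 1 sample, and leaving out a replicate was not possible for the same reason. Read depth is unknown, so the sites a deeper sample would add at Fgf2 or Erbb4 cannot be estimated.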
